A study of Mus musculus with 4 samples.

Results

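The cytosolic ribosomal protein genes were the protein-coding genes of the mouse RefSeq annotation (GRCm38) whose symbol begins with Rpl, Rplp or Rps followed by a number, together with Rpsa and without the Rps6k kinase genes. There were 86 of them among 21887 protein-coding genes on chromosomes 1 to 19, X and Y, 54 for the large and 32 for the small subunit, and 10 of the 86 were paralogue or like genes such as Rpl3l, Rpl22l1 and Rps27l. They were looked up in 2 lists of STAT3 peaks, obtained by chromatin immunoprecipitation and sequencing (ChIP-seq) of cells dissociated from spinal cord at the injury epicentre of C57BL/6 mice. Sham mice had a laminectomy at thoracic level 9, and SCI (spinal cord injury) mice had a contusion of 60 kdyn at that level, both 7 days before the tissue was taken. Each list came from 1 library of pooled tissue of 3 mice, so no difference between sham and SCI has a replicate check. The suspension held all dissociated cells, with no sort described, and the peak lists carry no expression values against which its cell types could be checked. Whether a peak is a site of STAT3 binding was not tested.

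Cytosolic ribosomal proteins assemble with ribosomal RNA into the small subunit, which reads the messenger RNA, and the large subunit, which forms peptide bonds. Their genes are short, are transcribed at high rates in nearly every cell, and start in a run of pyrimidines through which the mTOR kinase pathway sets their translation. STAT3 is a transcription factor that signals through gp130 receptors switch on, and it acts in reactive astrocytes after injury, and growing or reacting cells make more ribosomes. The standard members are genes that nearly every cell of the suspension needs, while some paralogues are expressed in few tissues, such as Rpl3l in muscle and Rpl10l in testis.

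The sham list held 88765 peaks and the SCI list 36249 on these chromosomes. Each peak has a score, the authors' own value for its strength, with a lowest value of 5. Scores of the lists are not known to share a scale, so a peak's place within its own list is given as well, where the top 1% are the strongest. Since the members were short, with a median length of 3170 bp against 17169 bp for all protein-coding genes, and 80 of the 86 fell in the shortest 30% of these genes, their counts were set beside those of genes of like length. That number is the sum over the 86 members of the share of protein-coding genes in the same 10% band of length that had a peak. The members were chosen by symbol, but as a group they were selected on their peak counts in these lists within 1 and 5 kb, the shortened sham list described next included, so all counts are descriptions.

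The sham list had a peak within 5 kb of 64.0% of the ribosomal protein genes, and the SCI list within 5 kb of 22.1%. Both shares were below those of all protein-coding genes, which are longer. A peak centre lay inside the gene or within 5 kb at 55 of the 86 members in sham, where 66.7% of all protein-coding genes had one and genes of like length gave 34.7 members. In SCI the number was 19, where 43.9% of all genes had one and genes of like length gave 17.0. The sham count was thus 1.59 times that of like genes and the SCI count 1.11 times. The SCI ratio depended on the setting: it was 1.20 at 1 kb and 1.34 at 10 kb, and with SCI peaks below the median score left out it was 1.91 at 1 kb and 1.54 at 5 kb, from 6 and 14 members. When only the 36249 highest-scoring sham peaks were kept, the length of the SCI list, 34 members had a sham peak within 5 kb, 1.94 times the 17.5 of like genes, against 44.9% of all genes. The lowest sham score kept was 9.199, while the SCI list went down to 5. This count thus sets the stronger sham peaks beside all SCI peaks.

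In sham the ratio to like genes was smaller at 1 kb than at 5 kb, and in SCI it was not. Centres lay inside 13 members in sham (all genes 51.0%; like length 9.6) and inside 4 in SCI (all genes 33.4%; like length 4.2). Inside or within 1 kb, 20 members had a sham peak (all genes 54.5%; like length 14.8) and 8 had an SCI peak (all genes 35.6%; like length 6.7). The shortened sham list left 7 members at 1 kb (all genes 36.6%; like length 6.9), about the number like genes gave. At 10 kb the sham count was 72 (all genes 76.8%; like length 50.9) and the SCI count 37 (all genes 52.2%; like length 27.6). The members nearest to the limits of the windows were Rpl26, whose nearest sham and SCI peaks lay 860 and 970 bp outside the gene, and Rpl30 (1070 bp, sham) and Rpl39 (1180 bp, SCI) just beyond 1 kb. At 5 kb the last member inside in SCI was Rpl23 (4402 bp), and the first outside were Rps6 in sham (5800 bp) and Rps25 in SCI (5002 bp). Rps25 missed the SCI count by 2 bp.

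**Figure D1:**
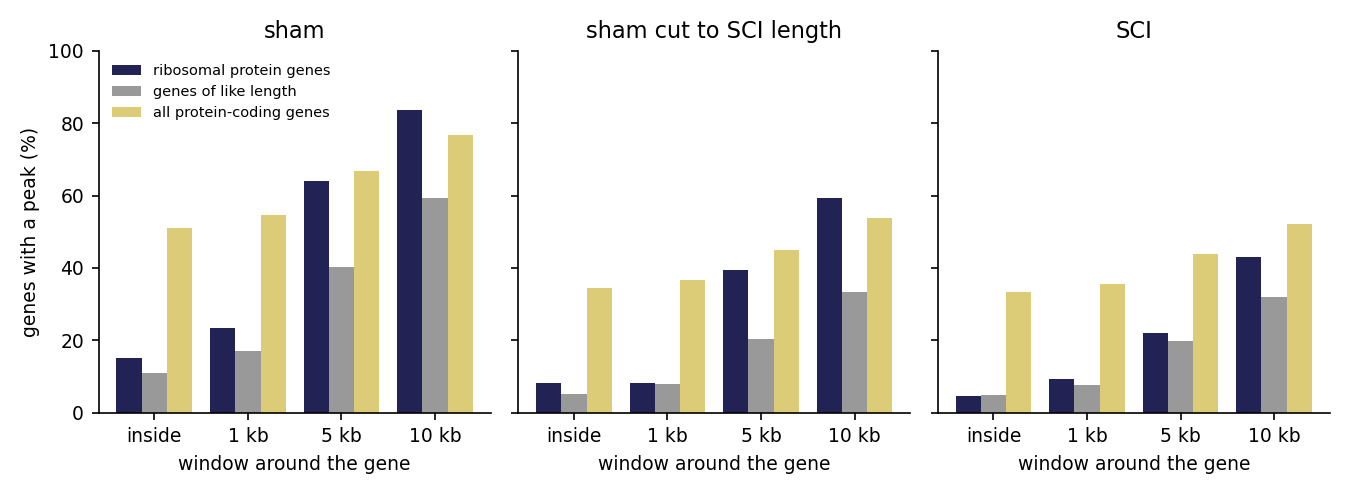
Percent of genes with a peak centre inside the gene or within 1, 5 or 10 kb, for the whole sham list, the sham list shortened to as many peaks as SCI has, and the SCI list. Dark bars are the 86 ribosomal protein genes, grey bars the share that genes of like length give, yellow bars all 21887 protein-coding genes. At 5 kb the dark and grey bars stand at 64.0 and 40.3% in sham and at 22.1 and 19.8% in SCI, and at 10 kb at 83.7 and 59.2% in sham and at 43.0 and 32.1% in SCI.

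In sham the ratio to genes of like length was higher from 1 to 5 kb outside the members than inside them or in the first 1 kb. Inside the members there were 15 sham peaks, where like genes give 10.3, and 5 SCI peaks, where they give 4.2. The shortened sham list had 8 inside, where like genes give 4.4. Between 1 and 5 kb outside the members there were 68 sham peaks, where the rate at genes of like length gives 31.6, a ratio of 2.15. In the first 1 kb there were 7, where like genes give 6.2. In the 5 to 10 kb band there were 71 sham peaks against 37.4, so the excess did not end at 5 kb. The shortened sham list had no peak at all in the first 1 kb, where like genes give 2.8, and 33 between 1 and 5 kb, where they give 13.6. SCI had 4 peaks in the first 1 kb (like genes 2.7), 15 between 1 and 5 kb (12.2) and 27 between 5 and 10 kb (15.2). Members had a median of 5 other protein-coding genes within 100 kb, against 4 for all genes. Matching on this gene density besides length left the ratios at 5 kb at 1.61 in sham and 1.13 in SCI.

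**Figure D2:**
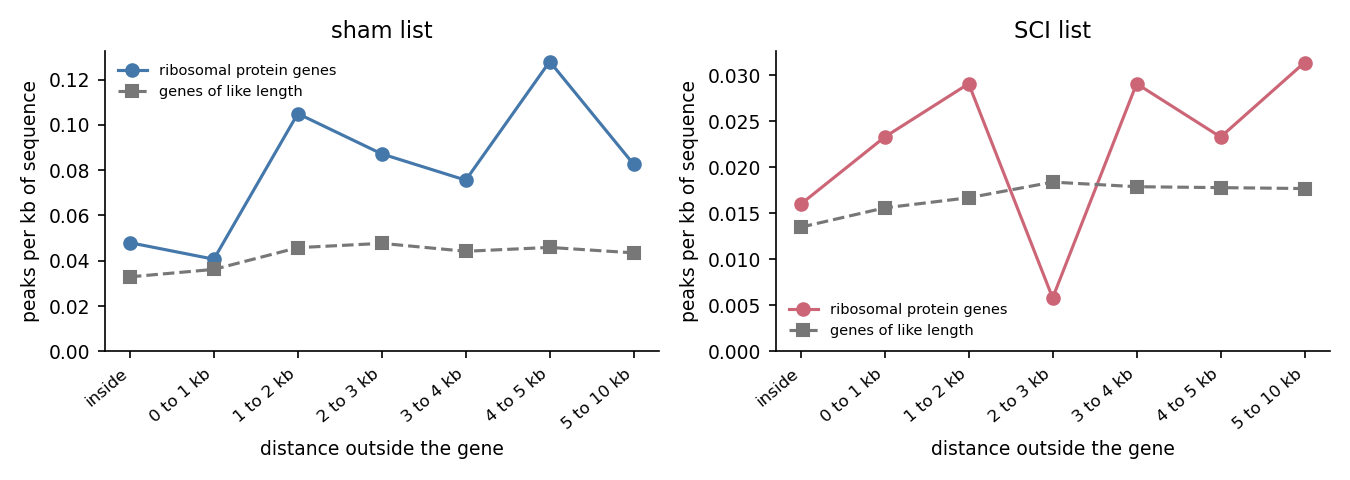
Peaks per kb of sequence inside the members and in bands outside them, for the sham list (left) and the SCI list (right, with its own axis), with the rate at genes of like length as grey squares. In sham the members stand at 0.048 peaks per kb inside the gene, against 0.0329, at 0.0407 in the first 1 kb, against 0.0362, and at 0.128 between 4 and 5 kb, against 0.0459. In SCI each point between 1 and 5 kb rests on 5 or fewer peaks.

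Most members with a peak had it in sham alone, and most genes of like length with a peak did as well. Within 5 kb, 17 members had a peak in both lists (37.3% of all genes; like length 9.8), 38 in sham alone (29.3%; 24.9) and 2 in SCI alone (6.51%; 7.3). Of the 2, Rpl39 encodes a small protein of the peptide exit tunnel. With the shortened sham list 12 members had a peak in both (28.8% of all genes; like length 6.0), 22 in sham alone (16.2%; 11.5) and 7 in SCI alone (15.1%; 11.0). Of the 38 members with sham peaks alone, 13 had an SCI peak within 10 kb, a number not computed for genes of like length. Of all genes 52.2% had an SCI peak within 10 kb, but the 38 by definition had none within 5 kb. The remaining 29 members had no peak within 5 kb in either list, where like length gives 44.1. They included Rpl10a, Rpl12, Rpl18, Rpl27a, Rpl31, Rpl32l, Rpl34, Rpl35a, Rpl36, Rpl36a, Rpl37, Rpl3l, Rpl6, Rpl7a and Rpl8 of the large subunit, and Rps16, Rps18, Rps19, Rps23, Rps24, Rps27, Rps27l, Rps29, Rps4x, Rps6 and Rpsa of the small subunit. Among them are Rps6, the substrate of the S6 kinases, and Rps19, the gene most often mutated in Diamond-Blackfan anaemia. The longest distance to a sham peak was 30.6 kb, at Rpl27a, and the longest to an SCI peak 111 kb, at Rpl22.

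**Figure D3:**
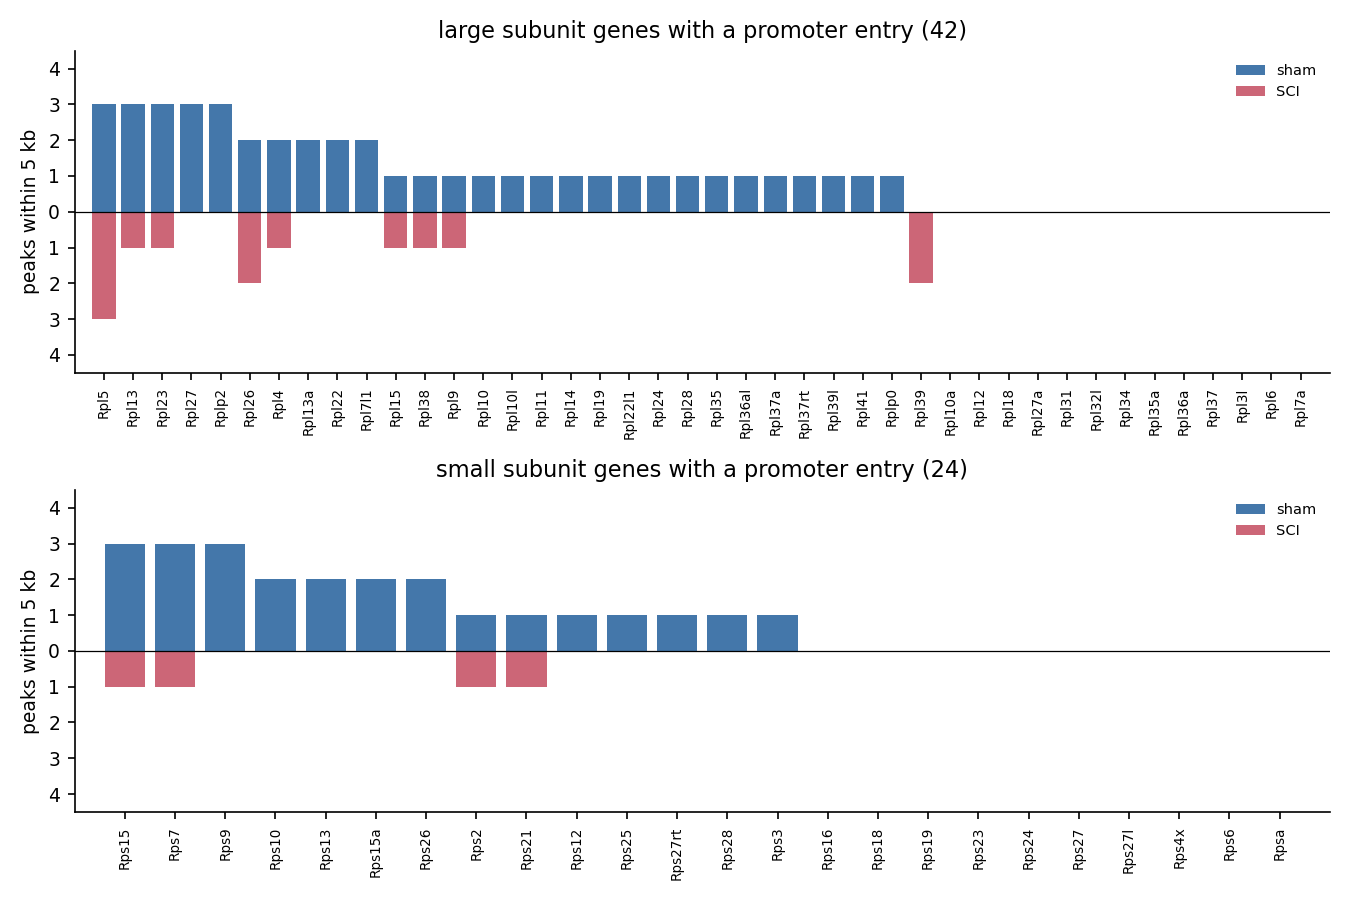
Number of peak centres inside the gene or within 5 kb for the 66 members with a RefSeq promoter entry, sham upward and SCI downward, large subunit genes above and small subunit genes below. Rpl5 is the one member with 3 peaks in both lists.

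The large and small subunit genes were also counted apart. Inside or within 1 kb, 16 of the 54 large subunit genes had a sham peak (like length 9.4) and 7 an SCI peak (4.2). Of the 32 small subunit genes 4 had a sham peak (5.3) and 1, Rps15, an SCI peak (2.4). At 5 kb the large subunit had 37 and 14 (like length 22.0 and 10.8), the small subunit 18 and 5 (12.7 and 6.2). With the shortened sham list the large subunit had 5 within 1 kb (4.5) and 22 within 5 kb (11.2), and the small subunit 2 (2.4) and 12 (6.3), so the ratios at 5 kb were close, at 1.96 and 1.90. The difference between subunits was not tested. None of the 10 paralogue and like genes had an SCI peak within 5 kb (like length 1.9), while 7 had a sham peak (3.9). The stalk is the flexible arm of the large subunit that recruits elongation factors. All 3 of its genes had a sham peak within 5 kb (66.7% of all genes; like length 1.1). Within 1 kb 2 had one (like length 0.4), and with the shortened sham list 2 had one within 5 kb (0.5). Rplp2 had 2 inside, at scores 5.85 and 16.7, the stronger in the top 13.3%. Rplp0, the stalk's base and a common reference gene, had 1 inside at a score of 7.08 (top 60.3%) and no SCI peak. Rplp1 had 1 position outside the gene in both lists.

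Introns of ribosomal protein genes often carry small nucleolar RNAs (snoRNAs), which guide the modification of ribosomal RNA. By the annotation 29 members held at least 1 snoRNA. Of these, 11 had an SCI peak within 5 kb (like length 5.9), against 8 of the 57 others (11.2). The 11 are 37.9% of the 29, where 43.9% of all genes had an SCI peak. Nearer to the snoRNAs the counts were small: 1 of the 29 had an SCI peak inside the gene (like length 1.4) and 4 within 1 kb (2.2). In sham the numbers were 18 of 29 (12.0) and 37 of 57 (22.7), nearly the same share. The 11 included Rpl3, Rpl4, Rpl5, Rpl13, Rpl23, Rpl23a, Rpl30, Rpl32, Rpl39 and Rps2. The split was made after the values were seen and was not tested.

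Rpl5 had the most SCI peaks. Its protein binds 5S ribosomal RNA and, with Rpl11, the p53 regulator Mdm2. The gene (chromosome 5, 107900508 to 107909005) held 2 sham peaks, at 107905104 to 107905293 with a score of 28.5 (top 3.28%) and at 107905750 to 107905939 with a score of 20.02 (top 8.80%). Both positions were in the SCI list, with scores of 8.77 (top 34.9%) and 5.53 (top 82.4%). Another position, 2470 bp downstream in SCI and inside the neighbouring gene Dipk1a, was also in both lists, at scores of 11.6 in sham and 5.51 in SCI. All 3 positions stood higher in the sham list than in the SCI list.

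Rps15, whose protein lies near the decoding site of the small subunit, was the one member with peaks of both lists within 1 kb of its annotated start. The gene spans 80292431 to 80294114 on chromosome 10. The sham peak was centred 888 bp after the start with a score of 14.6 (top 17.9%) and the SCI peak 736 bp after it with a score of 9.89 (top 26.7%). The peaks overlapped by 25 bp only, and their centres were 152 bp apart.

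Rpl26 carried the strongest SCI peak at any member. Its protein lies at the exit of the peptide tunnel. The peak, at 68905423 to 68905586 on chromosome 11, 970 bp downstream of the gene, had a score of 36.6 and ranked 113 of 36249 (top 0.312%). No sham peak overlapped it. The member's sham peaks lay upstream, at 860 and 4498 bp, with scores of 6.00 (top 75.1%) and 5.55 (top 84.9%), and the second of these positions was also in SCI at a score of 6.48 (top 63.8%). Rpl39 (chromosome X, 37082518 to 37085222) had 2 SCI peaks, 1180 bp downstream at a score of 19.8 (top 3.67%) and 4578 bp upstream at 11.1 (top 20.2%), and no sham peak within 5 kb. Both genes thus had their strong SCI peak beyond the 3′ end with nothing in sham over it. The next strongest SCI peak at a member, downstream of Rpl13 (score 19.3, top 4.07%), did overlap a sham peak. Of the SCI peaks within 5 kb of any protein-coding gene, 23.0% overlapped one.

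The remaining members with an SCI peak inside or within 1 kb were Rpl38, Rpl9, Rpl3, Rpl32 and Rpl4. Rpl38, whose loss in mice disturbs the axial skeleton, had a peak at the edge of its span, 748 bp before its annotated start, with a score of 8.24 (top 39.2%). Rpl9 had one inside at 6.75 (top 58.5%). Rpl3, of the peptidyl transferase centre, had one 12 bp outside the gene at 10.7 (top 22.6%). Rpl32 had one 554 bp outside at 7.49 (top 47.4%), and Rpl4, which lines the exit tunnel, one 590 bp downstream at 5, the lowest score. None of these 5 peaks overlapped a sham peak, where 23.0% of the SCI peaks within 5 kb of any protein-coding gene did. At Rpl32 the nearest sham peak lay 56 bp outside the gene at a score of 6.68 (top 67.5%), and both Rpl32 peaks lay inside its neighbour Cand2.

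Of the sham peaks within 1 kb the strongest after Rpl5 and Rplp2 were inside Rpl35 (score 16.2, top 14.4%), Rps15, Rpl22l1 (13.97, top 19.4%), Rps3 (12.8, top 23.1%), Rpl21 (12.5, top 24.1%) and Rpl10 (8.80, top 43.6%). Those at Rps27rt, 42 bp outside, and at Rpl28, 838 bp upstream, scored 8.14 and 7.66 and stood near the middle of the list (top 49.6 and 54.8%). Apart from Rps15 none of these 8 genes had an SCI peak within 5 kb, where 22.1% of the members and 43.9% of all genes had one. Farther out, strong sham peaks at members were at Rps14, 1463 bp outside the gene (score 36.5, top 1.33%), Rpl15 (34.7, top 1.62%) and Rpl9, 4808 bp upstream inside Lias (24.1, top 5.40%). The Rps14 peak was 61 bp wide, where the usual sham width is 190 bp. Rpl13a, a further reference gene, had sham peaks 2122 and 4830 bp upstream with scores of 5.64 (top 83.9%) and 10.8 (top 31.3%), and no SCI peak within 5 kb.

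Positions found in both lists made up a larger part of the SCI peaks at members than at genes in general. Of 24 SCI peaks within 5 kb of a member, 11 overlapped a sham peak by at least 1 bp, 45.8% (95% exact binomial interval 25.6 to 67.2%, counting error only), against 23.0% of the SCI peaks within 5 kb of any protein-coding gene. Of 90 sham peaks at members 11 were shared, 12.2% (6.26 to 20.8%), against 9.30%. Sham peaks between 1 and 5 kb outside the members were 2.15 times as many as at genes of like length, and the part of this in the shared share was not tested. With centres within 50 bp as the rule, 6 of the 11 remained, and the share at all genes was not computed under that rule. The intervals treat peaks as independent, which peaks at the same gene may not be, so they are no test. The 11 positions lay at 9 genes, with 3 of them at Rpl5.

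Besides the 3 at Rpl5 and those at Rps15 and Rpl26, they were as follows. Rpl15 had one 4238 bp upstream in SCI, inside Nkiras1, with a score of 12.8 (top 14.4%) in SCI and 34.7 in sham. Rpl13 had one 3372 bp downstream, where the SCI peak was the stronger by place (score 19.3, top 4.07%, against 9.56, top 38.6%). At Rpl30 the position 3654 bp outside the gene stood at nearly the same place in both lists (score 12.6, top 15.1% in SCI; 15.7, top 15.4% in sham). Rplp1 had one 1298 bp outside, in the top 33.2% in SCI and the top 28.0% in sham. Rpl23a, which lies at the tunnel exit and contacts the signal recognition particle, had one 1924 bp outside (top 31.3 and 41.2%), and Rpl23 one 4402 bp upstream (top 67.7 and 75.3%). In 6 of the 11 the sham peak stood higher in its list and in 5 the SCI peak did.

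**Figure D4:**
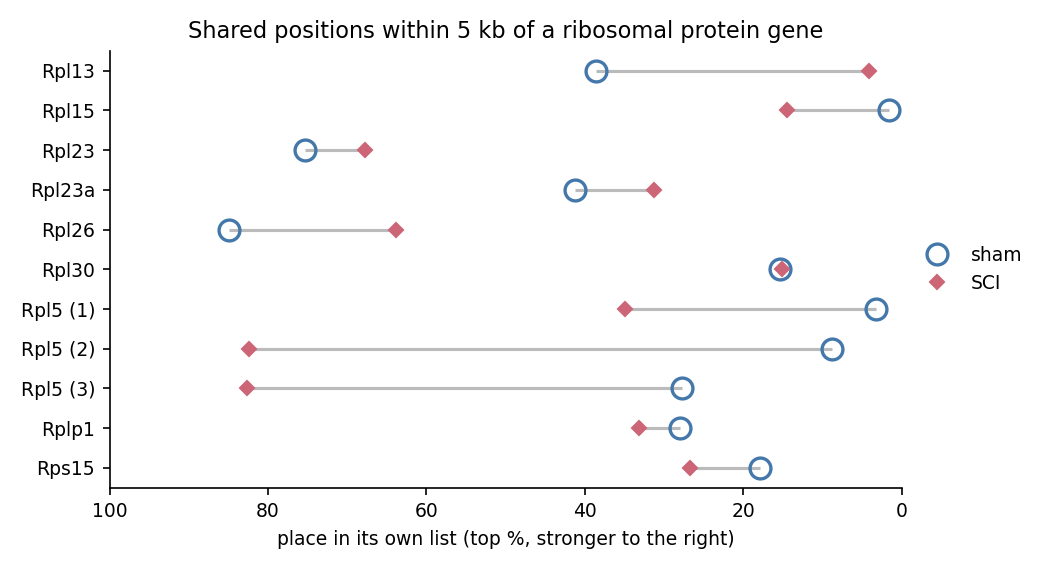
The 11 positions within 5 kb of a member that were in both lists, each with the place of its sham peak (open circle) and its SCI peak (diamond) in their own lists as top percent, stronger to the right. The 3 positions at Rpl5 have the sham mark to the right of the SCI mark, and Rpl13 has the reverse.

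The median place of the peaks at members was the top 46.2% in the sham list and the top 34.0% in the SCI list. Their median score was 8.56 in sham, against 8.19 for all peaks within 5 kb of a protein-coding gene, and 8.82 in SCI, against 7.47. In the top 10% of their list were 8 of the 90 sham and 3 of the 24 SCI peaks. The −log10 value in the place of the q-value was 3.27 to 4.05 at the sham peaks of members and 3.24 to 4.36 at their SCI peaks. Inside another protein-coding gene lay 18 of the 90 sham and 3 of the 24 SCI peaks. The share among peaks at all genes was not computed, and the difference between the lists was not tested.

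No peak of either list covered the promoter of a ribosomal protein gene whose start could be placed. RefSeq promoter entries, which run from 250 bases before to 50 after an annotated start, were matched for 66 of the 86 members. None of the 66 had a peak over that window in sham or SCI, where 1.75% of 17492 protein-coding genes with an entry had one in sham and 0.720% in SCI. With shares this low in all genes, a count of 0 in 66 is near the background. Within 1 kb of a start, 6 members had a sham peak (Rpl10, Rpl26, Rpl27, Rpl28, Rps15 and Rps27rt), where 7.29% of genes had one, and 2 an SCI peak (Rps15 and Rpl38), where 3.19% did. The Rpl27 peak lay 688 bp upstream with a score of 7.32 (top 58.2%). At 1 member, Rps27rt, the sham peak was nearer than 500 bp, at 414 bp.

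**Figure D5:**
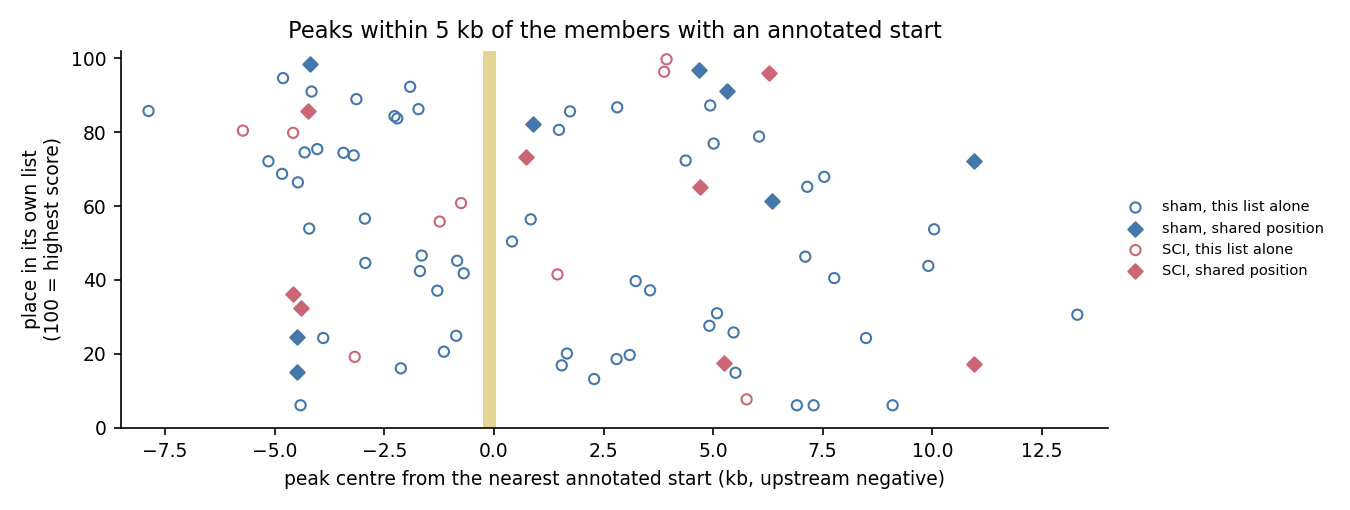
Peaks within 5 kb of the members with an annotated start, by the distance of the peak centre from the nearest start (horizontal, kb) and by place in their own list (vertical, 100 is the highest score). Blue is sham and red SCI, filled diamonds are positions in both lists, and the yellow band is the promoter window from 250 bases before to 50 after the start. The band holds no peak, and the nearest mark is the sham peak at Rps27rt.

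The letters of these promoters were searched on both strands for the STAT consensus and for factors known at ribosomal protein genes. TTCNNNGAA, the spaced palindrome of STAT factors, was in the window of 4 members, 6.06% against 8.92% of all promoters, and a form with C after the first arm and 1 more base between the arms in 3 members, 4.55% against 4.28%. CCGGAAG of the ETS family was in 25 members (37.9% against 12.9%), and GGGCGG of the SP family in 39 (59.1% against 49.2%). The YY1 consensus was in none, against 1.06%. On the reading strand, the pyrimidine run CTTTC, or the run CTTCC, or the run CTCTT, or the run CCTTT lay within 10 bases of the start in 24 members, 36.4% against 11.1%. A match describes letters in this window and is no evidence of a bound site. The windows with TTCNNNGAA were those of Rpl35, Rplp0, Rpl4 and Rpl36al, and none of the 4 had a peak over it.

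The 250 bases before the start are shown for Rps15, whose peaks of both lists were nearest to a start, and for Rpl35, Rplp0 and Rpl4. These last carry TTCNNNGAA and a peak inside or within 1 kb of the gene. The longer STAT form was in the windows of Rpl13, Rps26 and Rps3, which are not shown, and Rps3 also had a sham peak inside the gene. They are RefSeq sequences of GRCm38.p6, written 5′ to 3′ toward the gene, and capitals mark TTCNNNGAA, CCGGAAG and GGGCGG on either strand.
Rps15, chr10:80292181-80292430, plus strand: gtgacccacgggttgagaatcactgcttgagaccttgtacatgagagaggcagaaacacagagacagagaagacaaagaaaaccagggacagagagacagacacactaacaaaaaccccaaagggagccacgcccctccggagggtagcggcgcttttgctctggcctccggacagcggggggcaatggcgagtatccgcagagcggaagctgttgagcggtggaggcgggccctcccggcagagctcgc
Rpl35, chr2:39005132-39005381, minus strand: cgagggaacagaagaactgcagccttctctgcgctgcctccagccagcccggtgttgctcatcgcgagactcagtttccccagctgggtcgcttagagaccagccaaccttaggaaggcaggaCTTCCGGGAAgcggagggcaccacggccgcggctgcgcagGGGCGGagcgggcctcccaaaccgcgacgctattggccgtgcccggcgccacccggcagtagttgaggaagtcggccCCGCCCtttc
Rplp0, chr5:115559217-115559466, plus strand: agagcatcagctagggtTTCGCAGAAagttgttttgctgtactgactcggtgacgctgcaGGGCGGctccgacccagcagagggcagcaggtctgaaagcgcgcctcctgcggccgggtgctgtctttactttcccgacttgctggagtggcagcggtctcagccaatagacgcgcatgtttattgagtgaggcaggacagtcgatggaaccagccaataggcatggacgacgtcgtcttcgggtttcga
Rpl4, chr9:64173137-64173386, plus strand: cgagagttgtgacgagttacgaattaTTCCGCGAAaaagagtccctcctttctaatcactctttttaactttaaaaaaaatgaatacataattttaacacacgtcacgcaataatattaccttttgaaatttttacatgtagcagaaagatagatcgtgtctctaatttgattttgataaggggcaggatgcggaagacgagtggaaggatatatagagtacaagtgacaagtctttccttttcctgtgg
At Rpl35 the letters TTCCGGGAA begin 126 bases before the start and overlap a match to CCGGAAG on the other strand. At Rplp0 TTCGCAGAA begins 233 bases before the start, and at Rpl4 TTCCGCGAA begins 224 bases before it. The sham peaks inside Rpl35 and Rplp0 were centred 1736 and 3234 bp after the start, and the SCI peak at Rpl4 5764 bp after it. Rps15 has none of these 3 motifs in these bases.

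Processed pseudogenes of ribosomal protein genes are numerous, and their sequence is close to the exons of the members. Reads from such sequence can be hard to place, and the sources used here do not say how they were handled. Of 318 annotated ribosomal protein pseudogenes, 121 had a sham peak within 5 kb (34.0% of all 10429 pseudogenes; like length 108.7) and 56 an SCI peak (16.6%; 52.7). Centres inside the pseudogene were rare, 7 in sham (6.44% of all pseudogenes; like length 8.6) and 2 in SCI (3.07%; 3.2). Inside or within 1 kb, 58 had a sham peak (14.5% of all pseudogenes; like length 40.7) and 18 an SCI peak (6.74%; 18.1). The difference between members and pseudogenes was not tested.

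Other genes of ribosome production were counted in the same way. As more of their like-length genes have a peak, their ratios have a lower ceiling than that of the cytosolic members and are not compared with it. Mitochondrial ribosomal protein genes, whose products build the separate ribosome of the mitochondrion, had a sham peak within 5 kb at 52 of 78 (like length 42.3) and an SCI peak at 28 (23.6). Of these Mrpl10, Mrps35 and Mrpl17 had the strongest SCI peaks, with scores of 18.0, 17.7 and 14.9. Mrpl10 and Mrps35 also had sham peaks within 5 kb (best scores 15.8 and 10.5), and Mrpl17 had none. Ribosome biogenesis genes, such as nucleolar proteins and RNA polymerase I subunits, had 34 of 41 (27.5) in sham and 21 (16.3) in SCI. The best SCI peaks here were inside the nucleolar GTPase gene Gnl2 (score 27.8, top 0.971%) and 494 bp outside Utp20 (24.1, top 1.72%), followed by Nop2 (13.4). Gnl2, Utp20 and Nop2 also had sham peaks within 5 kb, the best at 30.9 (top 2.45%), 33.1 (top 1.92%) and 24.8 (top 4.96%). Translation factor genes had 25 of 34 (22.1) and 12 (12.9), led by Eif4a2 (18.0), Etf1 (12.8) and Eef1b2 (10.6). None of these leading genes, picked by their SCI peak, had a sham peak within 5 kb. Of all genes 6.51% had a peak in SCI alone. Genes that control ribosomal protein synthesis, such as those of the mTOR pathway, had 13 of 16 (12.3) and 11 (8.4), led by Tsc1 (23.0), Rptor (19.7) and Yy1 (13.7). Tsc1, Rptor and Yy1 also had sham peaks within 5 kb, with best scores of 12.9, 24 and 7.88.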

How the data were processed

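STAT3 ChIP-seq peak lists of 1 sham and 1 SCI library were used, each matched to its sample by title. Bowtie2 and the build mm10 were used for alignment, per the submitters' processing notes. Which program called the peaks, against which control and at which threshold, is not stated in any source used here. The deposited score is the authors' own strength value of a peak, 5 or more in every row. The deposited −log10 value stands where the layout places a q-value. Read depth is unknown.

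On chromosomes 1 to 19 and the sex chromosomes, peaks were placed at genes by their centres. Gene positions, snoRNAs and pseudogenes came from RefSeq GRCm38.p6, which shares its chromosome coordinates with mm10, and start sites and sequences from RefSeq promoter entries of that build. The number given by genes of like length is the sum, over the members, of the share of protein-coding genes in the same 10% band of length that had a peak. Counting was tested on simulated data. With 1 library per condition no test was run, and the members, lists and settings were chosen with earlier results of these data known. Named were members with an SCI peak within 1 kb, with a position in both lists, with a peak within 1 kb of the start, or among the 10 with the strongest sham peak within 1 kb, plus Rplp0 and Rpl13a and up to 3 genes of each pathway list with the best SCI peak. Some members are counted but not reported by name here. Other members named were chosen after their values were seen. The alternatives were other windows, any overlap of the peak, scores at or above the list median, a sham list kept to as many top peaks as SCI has, fewer members, and 3 other ways of matching. Scripts ran in Python 3.11.15 with pandas 2.3.3, numpy 2.4.6, scipy 1.17.1 and, for figures, matplotlib 3.10.9.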

Additional observations from a re-analysis of the deposited data

How the results depend on the processing

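With 1 library per condition nothing here was tested and no replicate was left out. No paired analysis was possible because each condition had 1 ChIP library. Read depth is unknown, and no input signal was used.

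Of 75 recomputed values 50 stayed within 1.5 times the main count or, for ratios, within the counting interval and on the same side of 1. Centres inside the gene alone gave 13 members in sham and 4 in SCI. The SCI ratio to genes of like length then turned from 1.20 (1 kb) and 1.11 (5 kb) to 0.94. A window of 10 kb gave 72 and 37. Peaks scoring at least their list's median left 9 members with a sham peak at 1 kb. The sham ratio then fell from 1.36 to 1.10 at 1 kb and rose from 1.59 to 1.89 at 5 kb, and the SCI ratio rose from 1.20 to 1.91 at 1 kb and from 1.11 to 1.54 at 5 kb, the causes of which were not tested. The sham list cut to the SCI length gave 7 members at 1 kb and 34 at 5 kb, with a ratio at 5 kb of 1.94 (this ratio was added after seeing the data). At 5 kb this list also had peaks at 17 ribosome biogenesis genes (like length 17.2) and 36 mitochondrial ribosomal protein genes (24.8). For translation factor genes the number was 17 (13.6) and for control genes 9 (8.6), where 44.9% of all protein-coding genes had a peak. It had peaks at 69 pseudogenes, with no like-length number computed. Centres within 50 bp left 6 shared SCI peaks. Start windows of 500 bp and 2 kb gave 1 and 14 members in sham and 0 and 4 in SCI. A window of 1 kb gave SCI peaks at 17 mitochondrial ribosomal protein genes (like length 15.1) and 6 translation factor genes (9.5), where 35.6% of all protein-coding genes had one. It gave SCI peaks at 18 pseudogenes (18.1) and sham peaks at 58 (40.7). The sham ratio of all members stayed above 1 at 1 and 5 kb under each alternative run for it, between 1.02 (1 kb, shortened list) and 1.94. As the group was selected on these counts, this is a description and no support. For the small subunit genes alone the sham ratio was 0.58 inside the gene, 0.75 at 1 kb and 1.42 at 5 kb.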
